A study of Mus musculus with 2 samples.

Results

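The insulin-like growth factor (IGF) axis was taken as 10 genes, namely the ligands Igf1 and Igf2, the receptors Igf1r and Igf2r, and the binding protein genes Igfbp2, Igfbp3, Igfbp4, Igfbp5, Igfbp6 and Igfbp7. Every probe set whose only annotated gene symbol was one of these was kept, which gave 28 probe sets for the 10 genes, of 18193 genes named alone by at least 1 probe set. A further 1 probe set, which names Igf2r together with another gene, was left out. The samples were diaphragm muscle of C57/BL6 mouse embryos at stage E18.5, with 1 array labelled RP58-/- (knockout of the zinc finger repressor RP58, now Zbtb18) and 1 array labelled RP58+/+ (wild type). The sources used here give neither the number of embryos behind each sample nor the cells in which the gene was lost. The comparison asks how expression in embryonic muscle differs when RP58 is missing.

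IGF1 and IGF2 are secreted peptides that act through the IGF1 receptor, a tyrosine kinase that signals to AKT and mTOR, and in muscle they promote myoblast proliferation, differentiation and fibre growth. The IGF2 receptor does not signal in this way but takes IGF2 up for breakdown in lysosomes. The IGF-binding proteins hold the ligands in tissue fluid and plasma, where they prolong their life, block them or release them near the receptor, and IGFBP7 is a relative that binds IGFs only weakly. Igf2 and Igf2r are imprinted in the mouse.

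On the array labelled RP58-/-, the binding protein genes Igfbp2 and Igfbp5 held the largest differences of the axis, while ligand and receptor genes lay close to 0 at their brightest probe sets. Single other probe sets of Igf1 and Igf2r, at 0.44 and 0.41, were as far from 0 as those of Igfbp4 and Igfbp6. Igfbp2 was 2.08-fold higher, and both probe sets of Igfbp5 were higher, by 1.48-fold and 2.85-fold. Igfbp4 and Igfbp6 were above 0 on all their probe sets but did not reach 1.5-fold, Igfbp3 was slightly below 0, and Igfbp7 had probe sets on both sides of 0. Of the ligands and receptors, none of 13 probe sets reached 1.5-fold in either direction, where 3.35% of all probe sets did so upward and 6.49% downward.

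Values are log2 signals as the authors deposited them, and each difference is the signal on the array labelled RP58-/- minus that on the array labelled RP58+/+. With 1 array per genotype there is no spread between embryos and no test, and precision is limited by the number of arrays. Genes were called higher or lower from 1.5-fold upward (a log2 difference of 0.58) at their brightest probe set. The only repeat measure is that of several probe sets for a gene: over 5675 genes, differences varied around the mean of their gene with a pooled SD of 0.28, which covers probe set error and isoforms but not embryos, dissection or hybridisation. All 28 member probe sets had a mean above the floor used here (log2 5.52), although the dimmest, of Igf1r, lay just over it.

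Facts of the whole series bear on the reading of each value. Medians were 6.03 on the array labelled RP58-/- and 6.02 on the array labelled RP58+/+. The labels could not be checked on the targeted gene, since Zbtb18 had a signal of 9.21 on the array labelled RP58-/- and 8.91 on the array labelled RP58+/+, and the sources used here do not say whether its probe set lies in the deleted part. Xist, expressed from the inactive X chromosome of female cells, was at 6.96 on the array labelled RP58-/- and 11.47 on the array labelled RP58+/+. The Y-linked genes went the other way. Eif2s3y was at 8.58 on the array labelled RP58-/- and 3.59 on the array labelled RP58+/+, and Kdm5d at 7.40 and 4.09. The samples thus differed in sex or in the mix of sexes, and sex and genotype label cannot be told apart for any gene here. The 24 probe sets of added poly-A control RNAs had a median difference of -0.75. Scaled to them, all genes would move up by 0.75 and 70.9% of genes would be called higher and 1.29% lower, against 3.83% and 6.51% as deposited. Differences here are therefore relative to the median gene, at -0.003, and on the other scale Igf2r and Igfbp3 would turn to above 0.

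**Figure D1:**
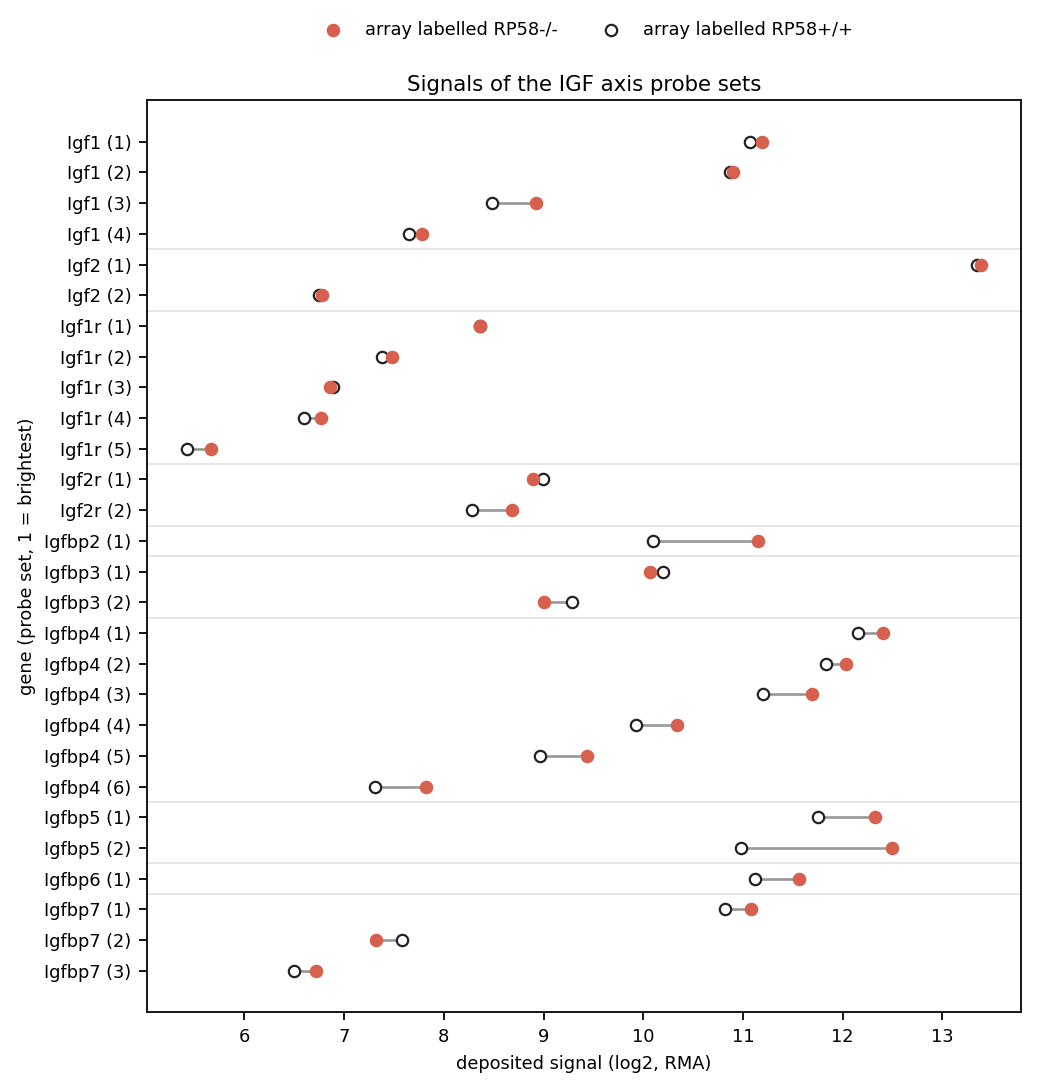
Deposited log2 RMA signal (x axis) of each of the 28 probe sets of the 10 IGF axis genes (y axis, probe set 1 is the brightest of its gene), with filled points for the array labelled RP58-/- and open points for the array labelled RP58+/+, 1 array each. The widest gaps are those of the second probe set of Igfbp5 (12.49 and 10.98) and of Igfbp2 (11.15 and 10.10), and the points of Igf2 and of the brightest Igf1r probe set nearly coincide.

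Both ligand genes were near equal on the arrays. Igf2, the main IGF of the embryo, had signals of 13.39 on the array labelled RP58-/- and 13.35 on the array labelled RP58+/+ at its brightest probe set, a difference of 0.04. Its other probe set, designed from the same transcript, gave 6.78 and 6.75 on the same arrays, a difference of 0.03. Each probe set, the bright and the dim one, thus had nearly equal values on the 2 arrays. Their signals lie far apart for the same transcript, so the dim one is a weak check on the bright one.

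Igf1, made in muscle and connective tissue as well as in liver, was read by 4 probe sets that all lay above 0. The brightest gave 11.19 on the array labelled RP58-/- and 11.08 on the array labelled RP58+/+, a difference of 0.12. The next gave 10.90 and 10.87 (0.03), and the dimmest gave 7.78 and 7.65 (0.13). The remaining probe set, at 8.92 on the array labelled RP58-/- and 8.48 on the array labelled RP58+/+, stood apart at 0.44. Their mean was 0.18 with an SD of 0.18 over the 4 probe sets, so the differences of Igf1 were within the disagreement of its own probe sets.

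Neither receptor gene differed by the size rule. Igf1r had a brightest probe set with the same deposited value, 8.37, on both arrays. Its other 4 probe sets differed by 0.09, -0.03, 0.17 and 0.24, the last at signals of 5.67 on the array labelled RP58-/- and 5.42 on the array labelled RP58+/+. The 2 dimmest probe sets had the largest differences, and all 5 were below the probe set SD.

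Igf2r, the scavenger receptor for IGF2, had 2 probe sets that pointed in opposite directions. One gave 8.89 on the array labelled RP58-/- and 8.99 on the array labelled RP58+/+ (-0.10), and the other gave 8.68 and 8.28 (0.41). The gene has no settled direction here. Airn, the antisense RNA that overlaps Igf2r and silences its paternal copy in the mouse, had a difference of -0.46 at its brightest probe set, and its 3 probe sets ran from -0.46 to 0.23.

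Igfbp2, a binding protein abundant in fetal tissues, was the only member called higher at its brightest probe set, and it was read by that 1 probe set alone. Its signal was 11.15 on the array labelled RP58-/- and 10.10 on the array labelled RP58+/+, a difference of 1.06. It ranked number 100 from the top of 14093 genes, where 3.83% of genes were called higher. No second probe set checked the value, and the probe set is of the _a_at kind, which matches several transcripts of a gene, so Igfbp2 could not be read once such kinds were left out.

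Igfbp5, the binding protein known for its induction during myoblast differentiation in culture, was above 0 on both probe sets, but by unequal amounts. The brighter gave 12.32 on the array labelled RP58-/- and 11.75 on the array labelled RP58+/+, a difference of 0.57 that falls just short of the size rule. The other gave 12.49 and 10.98, a difference of 1.51 that ranked number 28 among 23061 probe sets. The gap of 0.94 between them is unusual, since only 1.99% of 5675 genes had a gap that wide between their 2 brightest probe sets. The mean over both was 1.04, or 2.06-fold, with an SD of 0.67 over the 2 probe sets. The direction of Igfbp5 was thus shared by its probe sets while its size was not settled.

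Igfbp4, which mostly restrains IGF action until it is cleaved, was above 0 on 6 of 6 probe sets. Its brightest gave 12.41 on the array labelled RP58-/- and 12.16 on the array labelled RP58+/+, a difference of 0.25. The 6 differences ran from 0.20 to 0.51 with a mean of 0.39 and an SD of 0.13. The 2 brightest probe sets had the smallest differences and the dimmest had the largest, at 7.82 on the array labelled RP58-/- and 7.31 on the array labelled RP58+/+. The 6 probe sets come from 3 source transcripts and share sequence, so they are no independent repeats.

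Igfbp6, which prefers IGF2 over IGF1, gave 11.56 on the array labelled RP58-/- and 11.12 on the array labelled RP58+/+ on its 1 probe set, a difference of 0.44 (1.36-fold). It was thus within the size rule, and 92.8% of genes had a smaller difference.

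Igfbp3, the main carrier of IGFs in adult plasma, was the only binding protein gene with all probe sets below 0. The brighter gave 10.07 on the array labelled RP58-/- and 10.20 on the array labelled RP58+/+ (-0.13), and the dimmer gave 9.01 and 9.28 (-0.27). Both differences were smaller than the probe set SD.

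Igfbp7, a matrix and vessel-associated relative, gave 11.08 on the array labelled RP58-/- and 10.82 on the array labelled RP58+/+ at its brightest probe set (0.26). The other 2 probe sets, much dimmer, were at -0.26 and 0.23, and the mean over the 3 was 0.07 with an SD of 0.29. Its probe sets disagreed in sign, so no direction can be given.

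**Figure D2:**
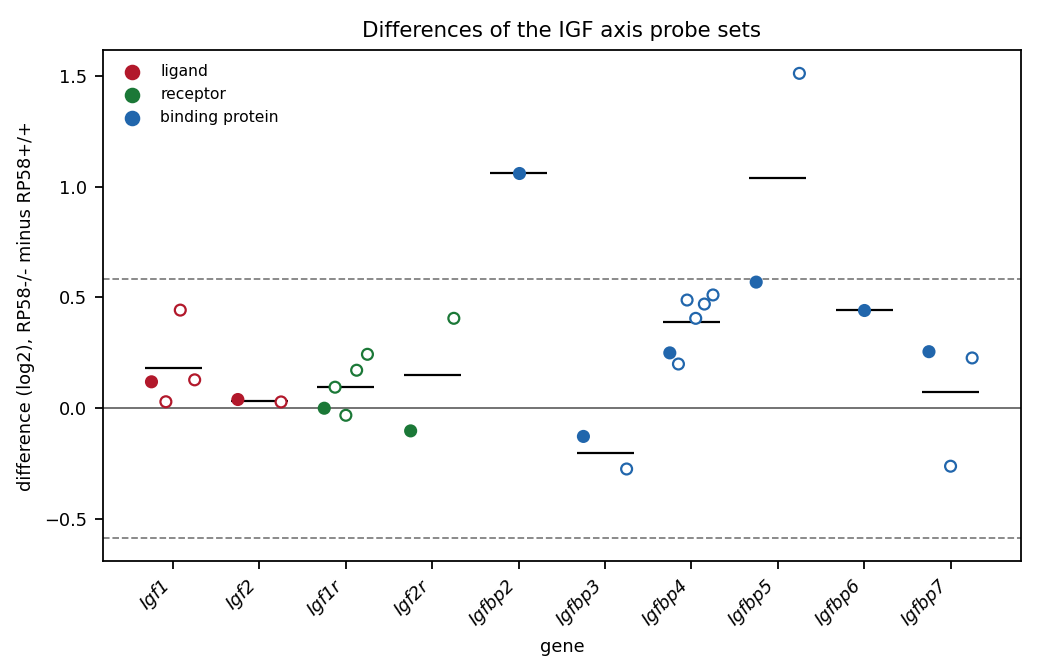
Difference of deposited log2 signals, RP58-/- minus RP58+/+ (y axis), for every probe set of each IGF axis gene (x axis), coloured by role, with filled points for the brightest probe set of a gene, black bars for the mean over its probe sets and dashed lines at 1.5-fold. Only the probe set of Igfbp2 (1.06) and the dimmer one of Igfbp5 (1.51) lie past the upper line, and no probe set lies past the lower one.

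By role, the median difference at the brightest probe set was 0.08 for the 2 ligand genes, -0.05 for the 2 receptor genes and 0.35 for the 6 binding protein genes, against -0.003 for all 14093 genes. Of the binding protein genes, 5 of 6 were above 0, and 12 of their 15 probe sets were. The 5 include Igfbp7, whose probe sets disagreed in sign, and 6 of the 15 are the overlapping probe sets of Igfbp4. Over all 10 genes, 7 were above 0, 2 were below and Igf1r was at 0, where 49.4% of all genes were above 0. Of the 28 probe sets, 22 were above 0 and 5 below, where 49.1% of all probe sets were above 0. Among them 2 were called higher and 0 lower, where 3.35% of all probe sets were called higher and 6.49% lower. As shares, 1 of 10 genes and 2 of 28 probe sets are small counts, and nothing particular to the axis is read from them. The spread within the axis was wide: at the brightest probe set it ran from -0.13 (Igfbp3) to 1.06 (Igfbp2).

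**Figure D3:**
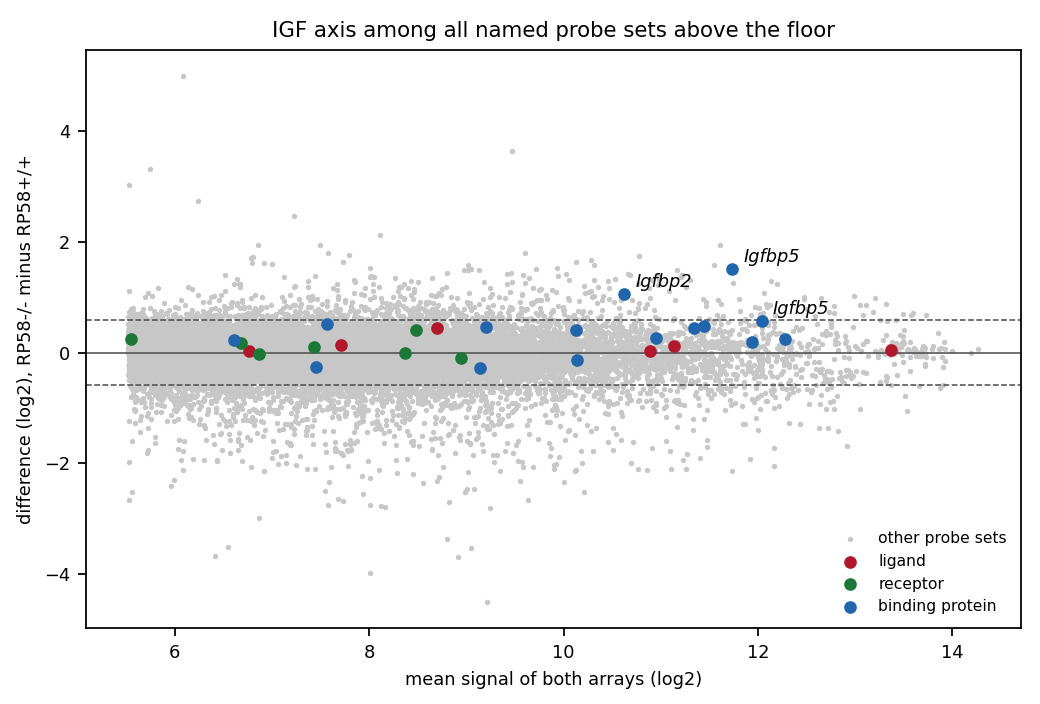
Difference (y axis, log2, RP58-/- minus RP58+/+) against the mean signal of both arrays (x axis, log2) for the probe sets with 1 gene symbol above the floor, with the 28 IGF axis probe sets coloured by role and dashed lines at 1.5-fold. The probe sets of Igfbp2 and Igfbp5 lie among the bright probe sets. Of all probe sets shown, bright or dim, 3.35% were called higher and 6.49% lower.

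Igfbp2 and Igfbp5, which had the largest differences of the axis, are direct neighbours on chromosome 1 in the RefSeq gene order, with their 3′ ends facing each other. The 10 nearest protein-coding genes above the floor, 5 on either side of the pair, had a median difference of 0.15 and ran from -0.66 (Pnkd) to 0.73 (Pecr), with 1 called higher and 1 lower. Pecr, a peroxisomal enzyme gene of fatty acid metabolism, thus lay between the brightest values of the pair. The other neighbouring pair of binding protein genes, Igfbp1 and Igfbp3 on chromosome 11, had unequal differences. Igfbp1, made mainly by liver, gave 13.02 on the array labelled RP58-/- and 12.47 on the array labelled RP58+/+ (0.54), against -0.13 for Igfbp3, and the 10 genes around that pair ran from -0.50 to 0.23.

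RP58 binds a DNA element with the E-box letters CATCTG at its core, so the window from 250 bases before to 50 bases after each annotated start was searched on both strands for CATCTG and for the longer ACATCTG, of which the first is part. The RefSeq promoter table (GRCm38.p6) held 14 windows for the 10 genes. CATCTG was in 2 of them, those of Igfbp3 and Igfbp4, where 17.2% of all 32851 windows hold it, and ACATCTG was in 1, that of Igfbp4, where 4.43% of all windows hold it. The windows of Igfbp2 and Igfbp5 held neither, which says only that these letters are not in these windows. The 250 bases before the start are shown for Igfbp2 and Igfbp5, the neighbours with the largest differences, and for Igfbp4, whose window holds the longer match, with its letters CATCTG in capitals as they read on the printed strand (CAGATG). They lie at chr1:72824230-72824479 (plus strand, the first of 2 starts), chr1:72874866-72875115 (minus strand) and chr11:99040994-99041243 (plus strand), and are written 5′ to 3′ along each gene.
Igfbp2: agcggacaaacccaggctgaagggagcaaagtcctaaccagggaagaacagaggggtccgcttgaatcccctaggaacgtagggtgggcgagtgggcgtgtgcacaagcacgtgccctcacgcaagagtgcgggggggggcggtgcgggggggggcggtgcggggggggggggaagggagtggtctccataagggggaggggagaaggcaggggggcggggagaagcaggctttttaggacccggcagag
Igfbp5: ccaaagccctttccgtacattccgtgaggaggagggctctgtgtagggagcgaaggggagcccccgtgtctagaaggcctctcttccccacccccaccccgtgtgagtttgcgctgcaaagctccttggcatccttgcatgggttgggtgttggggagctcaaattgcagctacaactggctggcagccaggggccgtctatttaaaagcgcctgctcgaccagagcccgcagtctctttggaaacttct
Igfbp4: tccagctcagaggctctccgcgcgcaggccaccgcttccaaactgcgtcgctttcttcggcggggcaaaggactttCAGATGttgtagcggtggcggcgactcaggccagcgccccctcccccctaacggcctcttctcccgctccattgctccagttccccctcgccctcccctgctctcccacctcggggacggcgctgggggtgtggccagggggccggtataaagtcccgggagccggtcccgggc
In the Igfbp4 window the match begins 174 bases before the start and the letters CATCTG read on the opposite strand. These matches are descriptions of sequence, and no binding was measured.

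Genes around the axis showed few differences at their brightest probe sets. Of 18 relatives above the floor (the insulin receptor, further binding proteins, proteases that cleave them and RNA-binding proteins of Igf2), 1 was called higher and 0 lower, with a median of 0.02. The gene called higher was Vtn, which encodes vitronectin, a liver-made plasma and matrix protein, at 12.05 on the array labelled RP58-/- and 11.18 on the array labelled RP58+/+ (0.87), and its other probe set was at 1.68. The genes that follow were named after their values were seen. Stc1, which encodes a stanniocalcin that inhibits a binding protein protease, was at -0.49, the protease gene Pappa was at -0.32 and the insulin receptor gene Insr at 0.22. Another probe set of Pappa was at 0.24 and one of Insr at -0.24. Stc2, the other stanniocalcin gene of the list, was above 0, with probe sets from 0.09 to 0.27. Larger differences of the list were those of Igfbp1 (0.54) and of Insrr (0.53), whose signal lay near the floor.

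Of 33 genes that signal below the IGF1 receptor, 0 were called higher and 0 lower at the brightest probe set, with a median of -0.03. Dimmer probe sets did pass 1.5-fold for Pik3ca (5 probe sets, from -0.85 to -0.14), Grb10 (3 probe sets, from 0.21 to 0.67) and Gsk3b (6 probe sets, from -0.34 to 0.62). The 3 largest differences at the brightest probe sets were those of Foxo1, Eif4ebp1 and Phlpp1. AKT inhibits the transcription factor Foxo1, mTOR inhibits the translation repressor Eif4ebp1, and Phlpp1 is a phosphatase of AKT. Foxo1 gave 8.04 on the array labelled RP58-/- and 7.53 on the array labelled RP58+/+ (0.51), and its 3 probe sets ran from 0.03 to 0.51. Eif4ebp1 gave 10.69 on the array labelled RP58-/- and 11.18 on the array labelled RP58+/+ (-0.49), and its 3 probe sets ran from -0.49 to -0.03. Phlpp1 was at 0.35 on its 1 probe set. These transcript levels say nothing of phosphorylation, by which most of this pathway is controlled.

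Of 8 genes of the growth hormone input to Igf1, 0 were called higher and 0 lower at the brightest probe set, with a median of -0.03. A dimmer probe set of the growth hormone receptor gene Ghr did pass 1.5-fold, at 0.64, beside -0.03 at its brightest. Socs3, a feedback inhibitor, was at -0.33 (3 probe sets, from -0.50 to -0.18), the phosphatase gene Ptpn6 at 0.23 and the feedback inhibitor gene Cish at 0.16. Of 17 genes of the imprinted growth network, 0 were called higher and 1 lower, with a median of -0.01. The gene called lower was Gatm, an enzyme of creatine synthesis, at 8.17 on the array labelled RP58-/- and 9.68 on the array labelled RP58+/+ (-1.52). Gatm was read by 1 probe set above the floor. Grb10, an adaptor that restrains the receptor, is in this list and in the signalling list. Dimmer probe sets passed 1.5-fold for Grb10 (0.67, beside 0.21 at its brightest) and for Dlk1 (-0.75, beside 0.33 at its brightest). All 4 lists were read against the same background of 3.83% of genes called higher and 6.51% called lower.

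Lists of liver, mesothelium, leukocyte and lung markers had medians above 0, and in each list some members reached the size rule. Of 15 liver markers, 15 were above 0 and 10 were called higher, with a median of 0.82 and a mean signal of 12.41 on the array labelled RP58-/- and 11.64 on the array labelled RP58+/+. Their summed linear signal was 1.46 times as high on the array labelled RP58-/-. The liver shift was uneven, and Alb (0.07), Afp (0.20), Ttr (0.35), Fga (0.50) and Tat (0.52) did not reach the size rule. Of 6 lung epithelium markers above the floor, 4 were called higher and 0 lower, with a median of 0.63. Their summed linear signal was 4.79 times as high on the array labelled RP58-/-, a ratio carried mostly by 1 gene, Sftpc. The surfactant genes Sftpb (0.12) and Sftpd (0.53) did not reach the size rule. The surfactant gene Sftpc gave 11.30 on the array labelled RP58-/- and 7.65 on the array labelled RP58+/+ (3.64) and Ager, a gene of alveolar type I cells, was at 1.24, while Sftpa1, Scgb1a1 and Nkx2-1 lay under the floor. Of 10 mesothelium markers 4 were called higher and 0 lower, with a median of 0.53, and 9 were above 0 and 1 below (Wt1, -0.12). Of 9 leukocyte markers 3 were called higher and 0 lower, with a median of 0.48. The 3 were Camp (0.97), Ngp (0.71) and Lyz2 (0.60), while Ptprc (0.10) and Adgre1 (0.02) lay near 0. Fetal liver is a known source of Igfbp2, and the part of these tissues in the differences of the binding protein genes was not tested.

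Markers of muscle fibres differed in the other direction. Of 10 above the floor, 7 were called lower and 0 higher, with a median of -1.16 and a mean signal of 10.43 on the array labelled RP58-/- and 11.46 on the array labelled RP58+/+, so the labelled tissue was present on both arrays. Progenitor markers had a median of 0.04 over 7 genes, with Myf5 called lower. Fibroblast and connective tissue markers, from cells that express several binding proteins, had a median of 0.03 over 9 genes, with 1 called higher (Osr1, 1.04) and 0 lower. Of 7 endothelial markers 1 was called lower (Cldn5, -0.69) and 0 higher, with a median of -0.22, and of 8 smooth muscle and pericyte markers 1 was called higher (Myh11, 0.67) and 0 lower, with a median of 0.05. Only 2 of the chondrocyte and bone markers lay above the floor, at 0.00 and 0.21. In bulk tissue, fewer cells of a type and less RNA per cell cannot be told apart.

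**Figure D4:**
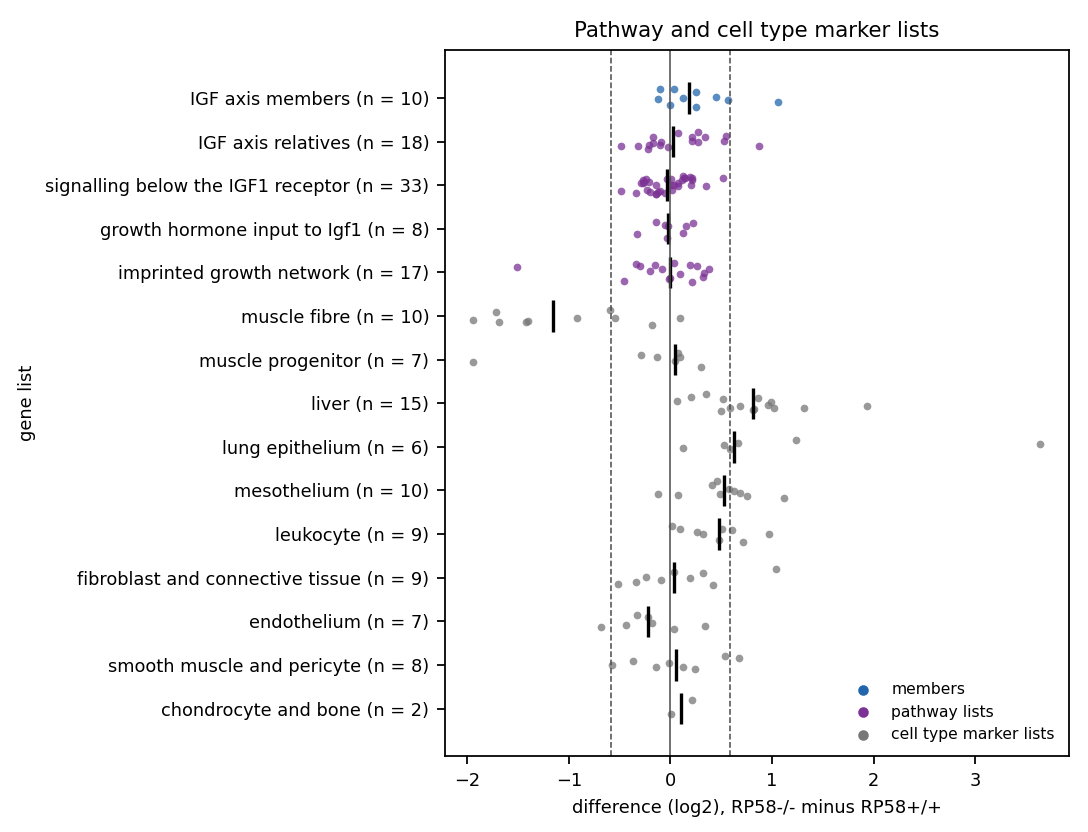
Difference (x axis, log2, RP58-/- minus RP58+/+) at the brightest probe set of each gene above the floor, for the 10 IGF axis members, the 4 pathway lists and the cell type marker lists (y axis), with black bars at list medians and dashed lines at 1.5-fold. Pathway lists centre near 0, the muscle fibre list at -1.16 and the liver list at 0.82.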

How the data were processed

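RNA of 2 samples was measured on 1 Affymetrix expression array each. The authors used RMA, per the series' design text, which corrects background, normalises by quantiles and summarises probes, and the submitters' processing notes name Affymetrix Expression Console 1.1. What they deposited are log2 signals for 45101 probe sets, and their scale was checked on the values. Quantile normalisation removes differences in total mRNA, and RMA gives no detection call.

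Probe sets were named from GEO's platform annotation, and 34945 carried 1 symbol. Those whose mean over both arrays lay under the 40th percentile (log2 5.52) were left out, and the brightest probe set stood for a gene, which left 14093 genes. Differences were computed in Python 3.11.15 with pandas 2.3.3 and statsmodels 0.14.6. The size rule was tested on simulated data whose only noise was the probe set SD. That simulation held no variation between embryos, dissections or hybridisations, so it says nothing of errors from those. No p-value was computed, since each genotype has 1 array. The alternatives were the mean over probe sets, dropping the _s_at, _x_at and _a_at kinds, no floor or a 60th percentile floor, median or lowess centring (fraction 0.3), and size rules of 2-fold or of the 95th percentile of disagreement between probe sets. Scaling to poly-A controls was added after seeing the data.

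Members and lists were chosen with earlier results of these data known. All members are named, and from each pathway list every gene past 1.5-fold or otherwise the 3 with the largest differences. Further genes were named after their values were seen. Promoter sequences are RefSeq's (GRCm38.p6).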

Additional observations from a re-analysis of the deposited data

How the results depend on the processing

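No paired analysis was possible because each genotype has 1 array, and for the same reason no replicate could be left out. The count of member genes called higher was 1 (Igfbp2) as reported. It was 2, Igfbp2 and Igfbp5, both with the mean over probe sets and with lowess centring. Without the _s_at, _x_at and _a_at kinds it was 0, as was the count of member probe sets called higher, because Igfbp2, Igfbp4 and Igfbp5 have no other probe sets and 7 genes were left. Scaled to the poly-A controls it was 10, with 26 probe sets called higher and a member median of 0.93, where 70.9% of all genes were called higher. The count of members called lower stayed at 0 under all 9 alternatives. The stricter size rules, the floor changes and poly-A scaling could not have raised it. Of 67 single-gene values, 56 moved by less than the probe set SD. The other 11 were the 10 members under poly-A scaling and Igfbp5 with the mean over probe sets (1.04). Many of the 56 could not move, so their count is no measure of robustness. A changed floor left the brightest probe set of each member in place, as did dropping those kinds for the 7 genes left. Median centring shifted all genes by the same small amount. The difference of Igfbp2 stayed between 1.04 and 1.81 under the alternatives that could read it. Apart from poly-A scaling, the member median ran from 0.04, over the 7 genes left without those kinds, to 0.21 with lowess centring, against 0.18 as reported.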
